A study of Mus musculus with 6 samples.

Results

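The nuclear genes for subunits of the oxidative phosphorylation complexes were compared between CD24+CD29+ and CD24-CD29- mouse breast cancer cells. Members were all probe sets of the Affymetrix Mouse430_2 array with exactly 1 gene symbol in the platform annotation, where that symbol began as do those of the Nduf subunits of complex I, the Sdh subunits of complex II, the Uqcr subunits of complex III, the nuclear Cox subunits of complex IV or the Atp5 subunits of complex V. The rule found 164 of 45101 probe sets, which read 81 of the 18193 genes measured: 35 of complex I, 4 of complex II, 8 of complex III, 17 of complex IV and 17 of complex V. It took in 2 genes that are not subunits of the assembled complexes by textbook knowledge, Ndufa4l2 and Cox7a2l. It placed Ndufa4 in complex I, although the protein is now regarded as a subunit of complex IV. A further 9 probe sets, whose annotation joins such a symbol with another one, were left out. Genes with no probe set under the rule were not analysed here.

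The cells are labelled as breast cancer stem cells, were grown in DMEM with fetal bovine serum, and were sorted by the surface proteins CD24, a glycoprotein, and CD29, the integrin beta-1 chain. The CD24+CD29+ group and the CD24-CD29- group had 3 arrays each. The design text calls the sample sets biological and independent, and whether each set had its own sort, culture or animal is not given in the labels, so a p-value here rests on the scatter among these 6 arrays, which may be partly technical. The labels name neither a strain, a cell line nor an animal's age. Epithelial markers were at high levels in both groups, with Epcam at 14.11 ± 0.02 in CD24+CD29+ and 14.13 ± 0.02 in CD24-CD29- cells (log2, SD, n = 3 each). Of the 6 epithelial markers, the basal keratins Krt14 and Krt5 were higher in CD24+CD29+ cells, by 0.99 and 0.65, the luminal keratins Krt8 and Krt18 were lower, at -0.17 and -0.42, and Epcam and Cdh1 did not pass. The part of this keratin difference in the results below was not tested.

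Oxidative phosphorylation takes electrons from NADH at complex I and from succinate at complex II, passes them through ubiquinone, complex III and cytochrome c to oxygen at complex IV, and uses the proton gradient made on the way to drive ATP synthesis at complex V. Complexes I, III, IV and V are built from products of both the nuclear and the mitochondrial genome, while complex II is wholly nuclear. Each complex has a catalytic core and, except for complex II, a shell of small accessory subunits that holds it together in the inner membrane. In many cells the nuclear genes are known to be driven together by the factors NRF1, GABPA (also called NRF-2) and YY1.

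Because the promoters of these genes are known for a few shared motifs, the 300 bases around the transcription start (250 before it and 50 after it) were read from the RefSeq promoter table for the build GRCm38.p6, in which 66 of the 81 genes had a window. The 5 windows below are examples shown for the motifs they hold, and counts over all windows are given further below. Capitals mark matches on either strand to the NRF1 core GCATGCGC, the GABPA motif CCGGAAG and the YY1 core AAGATGG. All of them run 5′ to 3′ along the gene's own strand. The first 3 belong to genes whose RNA was higher in CD24+CD29+ cells and carry the NRF1 core (in Uqcrc1 within a palindrome that holds the core on both strands). Windows of Cox6a1 and Atp5k, whose RNA was lower, carry it too and are not shown. The last 2 windows shown belong to genes whose RNA was lower on the probe set that stood for the gene, and carry the YY1 core. For Ndufc1 a dimmer probe set was higher, by 0.33.
Sdhb, chr4:140961021-140961320, plus strand: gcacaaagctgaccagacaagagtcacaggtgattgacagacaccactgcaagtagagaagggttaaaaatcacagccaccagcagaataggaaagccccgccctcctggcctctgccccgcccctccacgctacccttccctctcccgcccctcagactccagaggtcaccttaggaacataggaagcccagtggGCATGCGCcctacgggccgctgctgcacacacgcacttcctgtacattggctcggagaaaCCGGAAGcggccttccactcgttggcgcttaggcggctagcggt
Uqcrc1, chr9:108936398-108936697, plus strand: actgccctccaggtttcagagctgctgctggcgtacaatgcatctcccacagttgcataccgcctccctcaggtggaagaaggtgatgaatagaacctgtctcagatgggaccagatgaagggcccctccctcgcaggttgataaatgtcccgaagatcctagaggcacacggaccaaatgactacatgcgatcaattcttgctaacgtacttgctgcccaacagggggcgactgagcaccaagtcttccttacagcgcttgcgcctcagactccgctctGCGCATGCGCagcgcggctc
Atp5l, chr9:44920693-44920992, minus strand: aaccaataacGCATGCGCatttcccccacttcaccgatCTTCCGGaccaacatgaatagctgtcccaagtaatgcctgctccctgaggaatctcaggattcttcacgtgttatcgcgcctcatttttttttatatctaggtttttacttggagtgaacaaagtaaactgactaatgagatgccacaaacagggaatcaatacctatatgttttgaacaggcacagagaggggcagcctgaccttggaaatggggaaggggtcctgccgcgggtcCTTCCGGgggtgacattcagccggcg
Cox7c, chr13:86046746-86047045, minus strand: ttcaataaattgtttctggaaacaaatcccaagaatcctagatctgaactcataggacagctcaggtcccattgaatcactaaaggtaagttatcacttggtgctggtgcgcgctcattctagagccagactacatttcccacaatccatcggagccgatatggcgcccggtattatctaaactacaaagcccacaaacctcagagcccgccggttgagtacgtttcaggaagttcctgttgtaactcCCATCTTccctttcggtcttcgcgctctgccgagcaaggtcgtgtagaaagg
Ndufc1, chr3:51408906-51409205, minus strand: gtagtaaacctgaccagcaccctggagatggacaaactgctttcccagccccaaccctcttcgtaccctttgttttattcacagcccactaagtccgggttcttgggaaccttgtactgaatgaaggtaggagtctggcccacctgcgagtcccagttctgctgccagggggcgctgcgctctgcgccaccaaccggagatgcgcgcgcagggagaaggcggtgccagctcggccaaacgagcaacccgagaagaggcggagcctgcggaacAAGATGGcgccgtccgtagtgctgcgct

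Most of the genes had slightly less RNA, relative to the other genes, in CD24+CD29+ cells. There were 17 rises and 45 falls among the 81, and 19 genes missed the threshold, an adjusted p under 0.05 by limma over all 18193 genes (lmFit and eBayes, Benjamini-Hochberg). Over all genes, 34.4% were called higher and 36.5% lower, against 21.0% and 55.6% of the members. The median log2 difference (CD24+CD29+ minus CD24-CD29-) was -0.23 over the members and -0.04 over all genes. The changes were small. None of the 81 reached 2-fold in either direction, where 3.01% of all genes were higher and 1.66% lower by at least that much, and 62 members differed by less than 0.5. The values of the 2 groups did not overlap for 71 of the 81 members, against 73.6% of all genes.

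Direction here means direction relative to the other genes on the deposited scale. The added poly-A control RNAs were dimmer on CD24+CD29+ arrays, at mean levels of 10.89 to 10.97 against 11.99 to 12.03 on CD24-CD29- arrays, and scaling to them put the median over all genes at 1.05 in place of -0.04 and called all 81 members higher. The same scaling called 17842 of all 18193 genes higher and 178 lower. This scaling shifts all genes on an array alike, so the median of the members relative to that of all genes had to stay at -0.19. Over the other settings this relative median ran from -0.39, without the dimmest 40% of genes, to -0.077, with each gene's probe sets averaged. All 8 fibroblast markers were also higher on the deposited scale, with a summed level of 13.35 to 13.40 in CD24+CD29+ cells against 12.24 to 12.25 in CD24-CD29- cells (log2 of the sum), and their part in the results was not tested. All 6 leukocyte markers had means under 7 in both groups. In cells of a sorted mixture, fewer cells of a type and less RNA per cell cannot be told apart.

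The complexes did not share 1 pattern. Complexes I and IV had the lowest medians, -0.34 each, with 22 of 35 and 12 of 17 genes lower. Complex V stood between, with 5 genes higher, 9 lower and a median of -0.16. Complexes II and III had medians of 0.19 and 0.12, with 2 genes higher and 1 lower of 4, and 3 higher and 1 lower of 8. The medians of complexes II and III depend on the normalization: after cyclic loess they were 0.00045 and -0.038, and after quantile normalization 0.010 and -0.028. Averaging all probe sets of each gene brought the medians nearer to 0, at -0.12, -0.045, 0.0047, -0.23 and -0.035 for complexes I to V. The differences between complexes were not tested, since the genes of a complex are not replicates.

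**Figure D1:**
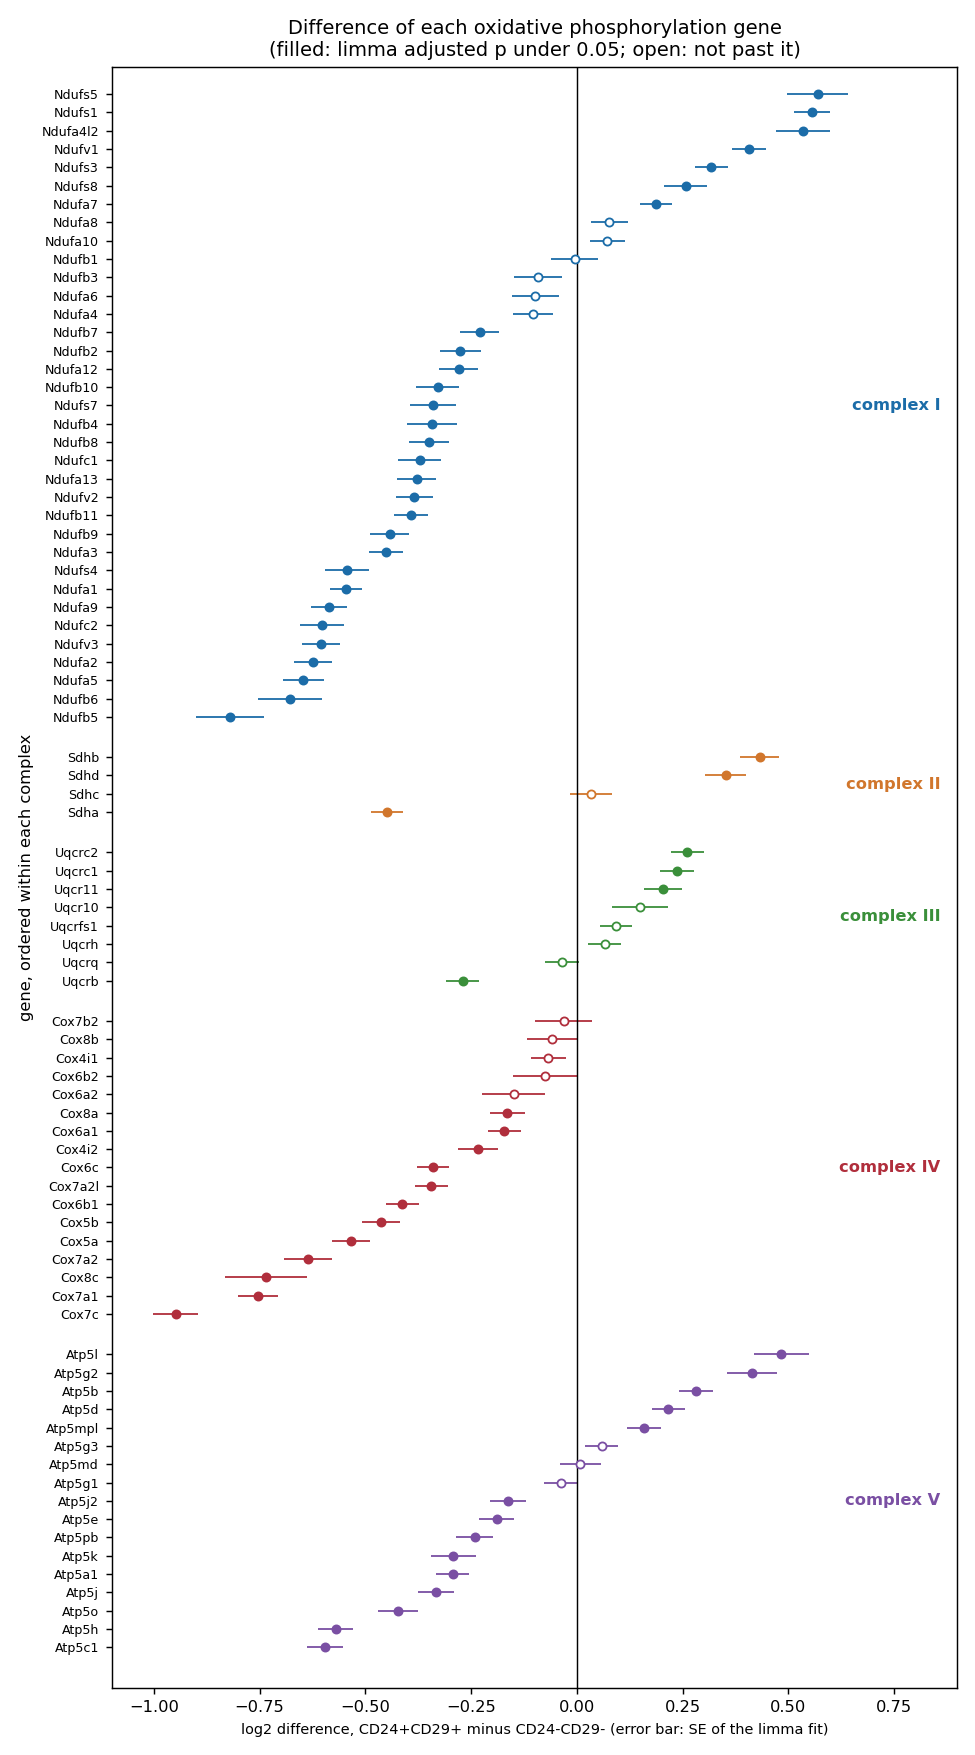
The log2 difference (horizontal axis, CD24+CD29+ minus CD24-CD29-) of each of the 81 genes (vertical axis), grouped by complex, as deposited. Points are limma estimates from 3 arrays per group, bars are their standard errors, and filled points passed the threshold. In complex IV all 17 points lie left of 0, while complexes II and III lie mostly right of it.

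In complex I, most core genes rose and most accessory genes fell, and the difference between the classes was not tested. The core carries the flavin and the iron-sulfur clusters that move electrons from NADH to ubiquinone. Of the 6 core genes measured, 4 rose and 2 fell, with a median of 0.29. The 28 accessory genes (Ndufa4 included, Ndufa4l2 not) had a median of -0.36: 20 of them fell, 2 rose and 6 did not pass. Ndufs1, the largest core subunit and a carrier of iron-sulfur clusters, had log2 values of 10.97, 10.90 and 10.99 in CD24+CD29+ cells, against 10.41, 10.40 and 10.38 in CD24-CD29- cells. The 3 values of CD24+CD29+ cells lay above all those of CD24-CD29- cells, and the difference was 0.56 (SE 0.04, limma adjusted p = 1.8e-05), or 1.47-fold. Ndufv1, the subunit that binds NADH and the flavin, was higher by 0.41 (SE 0.04; 11.73 ± 0.03 in CD24+CD29+ cells against 11.32 ± 0.02 in CD24-CD29- cells, SD, n = 3 each) on the probe set that represents it. Of its other probe sets, 1, which ends in _x_at and can cross-hybridise, was higher by 0.28 and 1 was lower, at -0.15. Ndufs3, another core subunit, was higher by 0.32 on its only probe set.

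The core genes Ndufv2 and Ndufs7, which carry iron-sulfur clusters, went the other way, at -0.38 (SE 0.04) and -0.34 (SE 0.05). Ndufs8, at 0.26, had 6 probe sets, of which 3 were higher, 1 lower and 2 not past the threshold, and it no longer passed after quantile normalization or cyclic loess (0.05 in each) or when its probe sets were averaged (0.10).

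The largest fall of complex I was that of Ndufb5, an accessory subunit of the membrane arm. It had values of 10.33, 10.21 and 10.11 in CD24+CD29+ cells, against 11.05, 11.16 and 10.90 in CD24-CD29- cells. The groups did not overlap, and the difference was -0.82 (SE 0.08, limma adjusted p = 6.3e-05), or 1.77-fold. Its other probe set, with means of 9.68 in CD24+CD29+ cells and 9.73 in CD24-CD29- cells, did not pass, at -0.05. Ndufb6, also of the membrane arm, was lower by 1.6-fold (-0.68, SE 0.08), and its other probe set agreed in direction at -0.24. Ndufa5, of the arm that reaches into the matrix, was lower by 1.57-fold (-0.65, SE 0.05), and its other probe set gave -0.56. Of the other accessory falls, 6 lay between -0.62 and -0.54: those of Ndufa2, Ndufv3, Ndufc2, Ndufa9, Ndufa1 and Ndufs4. For Ndufs4, which completes the NADH-oxidising end of the complex, all 4 probe sets fell.

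Among the accessory genes that rose, Ndufs5 had the largest difference, 0.57 (SE 0.07, limma adjusted p = 0.00025), at the low level of 6.56 ± 0.13 in CD24+CD29+ cells against 5.99 ± 0.07 in CD24-CD29- cells (SD, n = 3 each). A second probe set for it is shared with a pseudogene in the annotation and was left out by the rule. The only other accessory rise was that of Ndufa7, at 0.19, a call lost after quantile normalization, cyclic loess and averaging of its probe sets. Ndufa4l2, a paralog of Ndufa4 known to be induced by hypoxia, had 8.30, 8.30 and 8.35 in CD24+CD29+ cells and 7.90, 7.67 and 7.78 in CD24-CD29- cells, a difference of 0.53 (SE 0.06). Ndufa4 itself did not pass, at -0.10 (SE 0.05), but was called lower after quantile normalization, at -0.22, and cyclic loess, at -0.23. The difference between these 2 differences was 0.64 (exact permutation test over the 6 arrays, 2-sided, p = 0.1, the smallest p that 3 against 3 can give, and 0.15 after adjustment over 9 isoform pairs).

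Complex II oxidises succinate in the citrate cycle and hands the electrons to ubiquinone. Its flavoprotein and its iron-sulfur protein changed in opposite directions. Sdha, the flavoprotein that binds succinate, had values of 11.15, 11.14 and 11.13 in CD24+CD29+ cells, against 11.58, 11.60 and 11.59 in CD24-CD29- cells. All values of CD24+CD29+ cells were the lower ones, with a difference of -0.45 (SE 0.04, limma adjusted p = 3e-05), and 2 further probe sets were lower too, at -0.32 and -0.69. Sdhb, the iron-sulfur subunit, had 11.18, 11.17 and 11.18 in CD24+CD29+ cells and 10.67, 10.77 and 10.80 in CD24-CD29- cells, a difference of 0.43 (SE 0.05, limma adjusted p = 0.00011) on its only probe set.

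The membrane anchors Sdhc and Sdhd were less clear. Sdhd was higher by 0.35 (SE 0.05) on the brighter of its probe sets and lower, at -0.36, on the dimmer one, which ends in _x_at and can cross-hybridise. Averaged, both gave -0.0044. Sdhc had 9.52 ± 0.06 in CD24+CD29+ cells and 9.49 ± 0.06 in CD24-CD29- cells (SD, n = 3 each), and did not pass (0.03, limma adjusted p = 0.57). It passed as lower after quantile normalization, at -0.15, and cyclic loess, at -0.16.

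Complex III passes electrons from ubiquinol to cytochrome c. The genes of its large core proteins rose on the probe sets that represent them. Uqcrc2 had 11.46, 11.42 and 11.43 in CD24+CD29+ cells, against 11.19, 11.16 and 11.17 in CD24-CD29- cells, a difference of 0.26 (SE 0.04, limma adjusted p = 0.00058) on the brighter of 2 probe sets. The 2 were close in level, with means of 11.31 and 11.30, and the dimmer one, at -0.02, did not pass. Uqcrc1 had 10.98, 10.99 and 11.03 in CD24+CD29+ cells and 10.78, 10.74 and 10.77 in CD24-CD29- cells, a difference of 0.24 (SE 0.04) on its only probe set. Uqcrfs1, the Rieske iron-sulfur protein, did not pass, at 0.09 (SE 0.04, limma adjusted p = 0.060), although its groups did not overlap. It passed as higher after median centring, at 0.15, and without the dimmest genes.

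Of the small subunits of complex III, Uqcr11 was higher by 0.20 (SE 0.05), a call lost after quantile normalization (0.05) and cyclic loess (0.03). Uqcrb fell. It had 13.99, 14.02 and 14.02 in CD24+CD29+ cells, against 14.26, 14.29 and 14.29 in CD24-CD29- cells, a difference of -0.27 (SE 0.04, limma adjusted p = 0.00049). These values lie near the highest on any array, 14.95, where differences can be compressed, and its dimmer probe set gave -0.70. The small subunits Uqcr10 (0.15), Uqcrh (0.07) and Uqcrq (-0.04) did not pass, but each had other probe sets that were lower, at -0.75 for Uqcr10, -0.23 for Uqcrh and -0.30 to -0.52 for the 3 of Uqcrq. Those of Uqcr10 and Uqcrq were dim, with means of 5.95 and of 5.42 to 6.22, against 8.24 and 9.78 for the representing ones. Of all probe sets at a level under 7, 15.8% were higher and 41.2% lower. The remaining probe set of Uqcr10, at -0.13, did not pass. Averaged over their probe sets, Uqcr10 passed as lower at -0.24 and Uqcrq at -0.33, and the genes of complex III had a median of 0.0047. Uqcr10 was called higher after median centring, at 0.20, and where limma's variance was let follow the level, at 0.15. Uqcrh was called higher after median centring, at 0.12, and lower after cyclic loess, at -0.11. Uqcrq was called lower after quantile normalization, at -0.19, and cyclic loess, at -0.21.

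Complex IV reduces oxygen to water. Its catalytic subunits are encoded by the mitochondrial genome, and the nuclear genes encode the small subunits around them. None of the 17 genes rose, 12 fell and 5 did not pass, where 34.4% of all genes were called higher and 36.5% lower. Of the 9 subunits used in most tissues, 8 fell, with a median of -0.41, and Cox4i1, the subunit known to mediate inhibition by ATP, did not pass, at -0.07 (12.67 ± 0.03 in CD24+CD29+ cells against 12.74 ± 0.02 in CD24-CD29- cells, SD, n = 3 each). It was called lower, at the same difference, where limma's variance was let follow the level. Cox7c had the largest fall of all 81 genes. Its values were 7.33, 7.25 and 7.17 in CD24+CD29+ cells, against 8.24, 8.19 and 8.17 in CD24-CD29- cells, a difference of -0.95 (SE 0.05, limma adjusted p = 3.9e-06), or 1.93-fold. Both of its probe sets were lower, and both were dim beside the other general subunits, with means under 9.

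Cox7a2, another general subunit, had 11.83, 11.67 and 11.84 in CD24+CD29+ cells and 12.38, 12.44 and 12.44 in CD24-CD29- cells, a difference of -0.64 (SE 0.06). Cox5a was lower by 0.53 on the log2 scale (12.28 ± 0.05 in CD24+CD29+ cells against 12.81 ± 0.03 in CD24-CD29- cells, SD, n = 3 each), and all 3 of its probe sets were lower. Cox6b1 (-0.41), Cox6c (-0.34), Cox6a1 (-0.17) and Cox8a (-0.16) fell as well. Cox5b had 6 probe sets, of which 4 were lower, at -0.31 to -0.55, and the 2 dimmest did not pass. All of the lower ones but that which represents the gene end in _x_at. Cox7a2l, a factor that joins complexes III and IV in supercomplexes and is not a subunit of either alone, was lower at -0.34 (SE 0.04).

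The 7 tissue isoforms of complex IV were dim, with means of 4.44 to 7.24 over the 6 arrays, against a median level of 12.10 for the general subunits, and with no detection calls it is not known which were expressed. Of them, 3 fell. Cox7a1, the form known from heart and skeletal muscle, had 4.64, 4.59 and 4.62 in CD24+CD29+ cells, against 5.33, 5.44 and 5.34 in CD24-CD29- cells, a difference of -0.75 (SE 0.05, limma adjusted p = 6.7e-06). Cox8c, a testis form, was lower at -0.73 (SE 0.10) on the brighter of 2 probe sets that were both lower, and Cox4i2, known from lung and from hypoxia, at -0.23 (SE 0.05). The call of Cox4i2 was lost after quantile normalization and cyclic loess, at -0.09 in each. The muscle forms Cox6a2 (-0.15) and Cox8b (-0.06) and the testis forms Cox6b2 (-0.07) and Cox7b2 (-0.03) did not pass, although Cox6a2 passed as lower after quantile normalization (-0.29) and cyclic loess (-0.27), when its probe sets were averaged (-0.22), with the replicate number as a block (-0.15) and without the first CD24-CD29- array (-0.22).

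Markers of skeletal and heart muscle were dim too, and of 8 none rose and 4 fell, with a summed level of 8.47 to 8.49 in CD24+CD29+ cells against 8.73 to 8.75 in CD24-CD29- cells. The muscle markers' part in the falls of the tissue isoforms was not tested. Among all genes with a mean level under 5, the range of Cox7a1, Cox6b2, Cox8b and Cox7b2, 5.15% were higher and 40.2% lower. At a level of 5 to 6, that of Cox4i2, 8.22% were higher and 56.6% lower, while at 7 to 8, that of Cox8c and Cox6a2, 49.6% were higher and 25.5% lower.

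**Figure D2:**
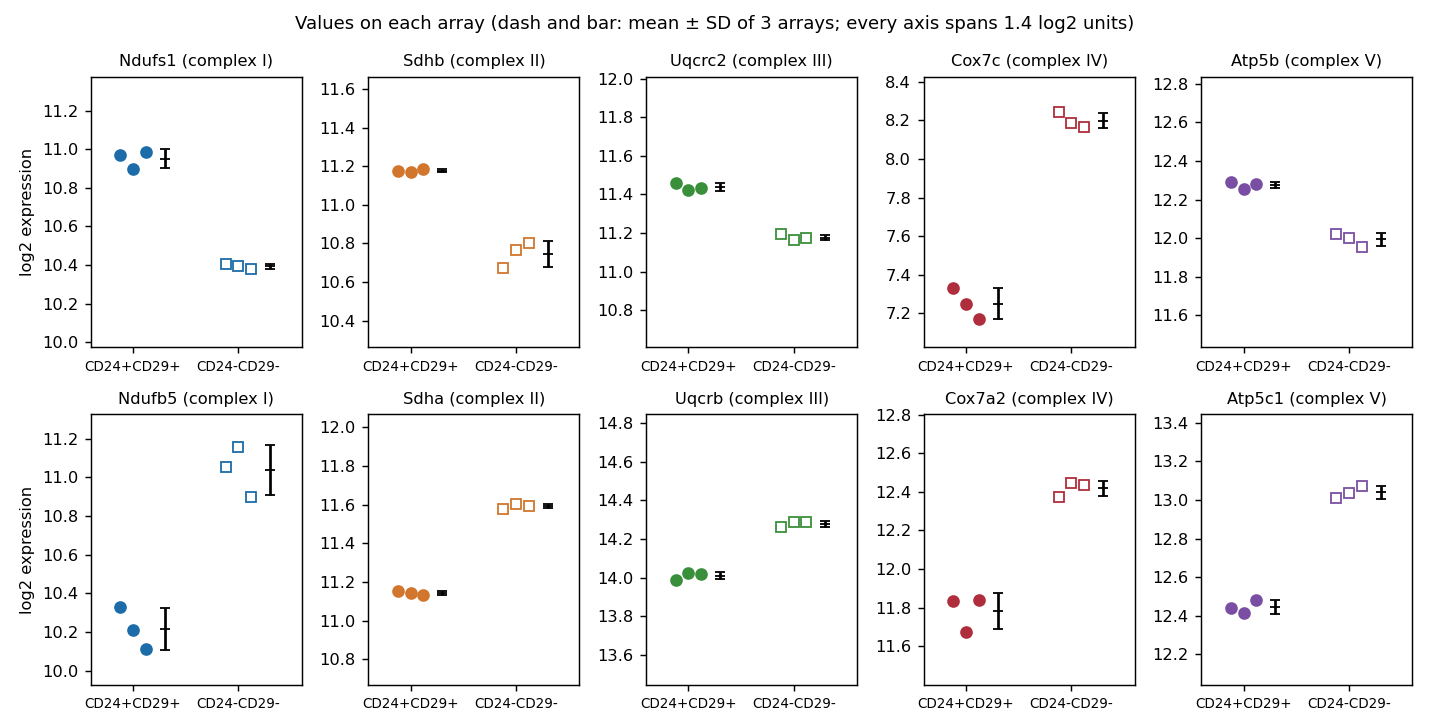
Log2 expression (vertical axes, each spanning 1.4 units) on each array for 10 genes, 2 of each complex, with CD24+CD29+ arrays as filled circles on the left and CD24-CD29- arrays as open squares on the right. Dashes and bars are the mean ± SD of 3 arrays. The groups do not overlap for any of the 10 genes, and the upper row rises in CD24+CD29+ cells apart from Cox7c, while the lower row falls.

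Complex V makes ATP. Within it, the catalytic beta subunit rose while the gamma subunit that turns inside it fell. Atp5b, the beta subunit, had 12.29, 12.26 and 12.28 in CD24+CD29+ cells, against 12.023, 12.001 and 11.956 in CD24-CD29- cells, a difference of 0.28 (SE 0.04, limma adjusted p = 0.00051) on its only probe set. Atp5c1, the gamma subunit of the central stalk, had 12.44, 12.41 and 12.48 in CD24+CD29+ cells and 13.01, 13.04 and 13.07 in CD24-CD29- cells, a difference of -0.59 (SE 0.04, limma adjusted p = 1.3e-05), or 1.51-fold, and its dimmer probe set was also lower. Atp5d, the delta subunit of the central stalk, was higher by 0.22 (SE 0.04), and by 0.40 on a second probe set.

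Atp5a1, the alpha subunit that surrounds the central stalk with beta, could not be given 1 direction. The probe set that represents it was lower, at -0.29 (13.53 ± 0.02 in CD24+CD29+ cells against 13.83 ± 0.02 in CD24-CD29- cells, SD, n = 3 each), a second bright one was higher by 0.38, and a dim one was lower at -0.42. Averaged, the 3 did not pass, at -0.11.

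The stalk that holds the head of complex V in place and the membrane subunits mostly fell: their 9 genes had a median of -0.24, and 6 fell, 2 rose and 1 did not pass. Atp5h, subunit d of the peripheral stalk, had 12.93, 12.89 and 12.89 in CD24+CD29+ cells, against 13.43, 13.47 and 13.51 in CD24-CD29- cells, a difference of -0.57 (SE 0.04), and both of its probe sets were lower. Atp5o, the protein that links this stalk to the head, was lower at -0.42 (SE 0.05), and its second probe set, which ends in _x_at, gave -0.87. Atp5l, subunit g at the dimer interface, went the other way, with 10.82, 10.72 and 10.76 in CD24+CD29+ cells and 10.39, 10.30 and 10.16 in CD24-CD29- cells, a difference of 0.48 (SE 0.07). Atp5j2, subunit f, was at -0.16 with 1 of its 3 probe sets higher, and its call was lost after median centring and when its probe sets were averaged. Atp5j (-0.33), Atp5k (-0.29) and Atp5pb (-0.24), also of the stalks and membrane part, fell, and so did Atp5e (-0.19) of the central stalk. Atp5mpl, a small membrane subunit, rose by 0.16, a call lost after quantile normalization and cyclic loess, and Atp5md did not pass, at 0.01, but was called lower after quantile normalization (-0.19) and cyclic loess (-0.20).

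The c-ring that turns in the membrane is encoded by 3 genes whose mature proteins are known to be the same. Atp5g2 rose by 0.41 (9.29 ± 0.09 in CD24+CD29+ cells against 8.88 ± 0.07 in CD24-CD29- cells, SD, n = 3 each; SE 0.06), with a second probe set at 0.73 and a dim one ending in _x_at at -0.30. Atp5g1 (-0.04) and the bright Atp5g3 (0.06) did not pass, and after quantile normalization Atp5g1 passed as lower, at -0.24, and Atp5g3 as higher, at 0.14. The difference of Atp5g2 exceeded that of Atp5g3 by 0.36 (exact permutation test, 2-sided, p = 0.1, the smallest possible, and 0.15 over the 9 pairs).

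The balance of rises and falls differed between bright and dim members, a difference that was not tested. The members were bright, with a median level of 10.77 against 7.15 over all genes. Of the 37 members with a mean level of 11 or more, 5 rose and 29 fell, with a median of -0.37. Of all 1396 genes at that level, 46.8% were called higher and 31.1% lower, with a median of 0.08. Of the 44 dimmer members 12 rose and 16 fell, or 27.3% and 36.4%. Among all genes under a level of 11, 33.3% were called higher and 36.9% lower, but their median level was 6.80 against 9.48 for the dimmer members. At a level of 9 to 10, 5 of 16 members rose and 6 fell, where 57.7% of all genes were higher and 22.2% lower. At 10 to 11, 4 of 13 members rose and 5 fell, where 55.3% of all genes were higher and 23.8% lower. At 8 to 9, 2 of 4 members rose and 0 fell, where 58.8% of all genes were higher and 19.2% lower. Over the 81 members the difference correlated with the level at r = -0.16, and over all 18193 genes at r = 0.26. These are descriptions across genes, which share the 6 arrays and are not independent replicates.

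**Figure D3:**
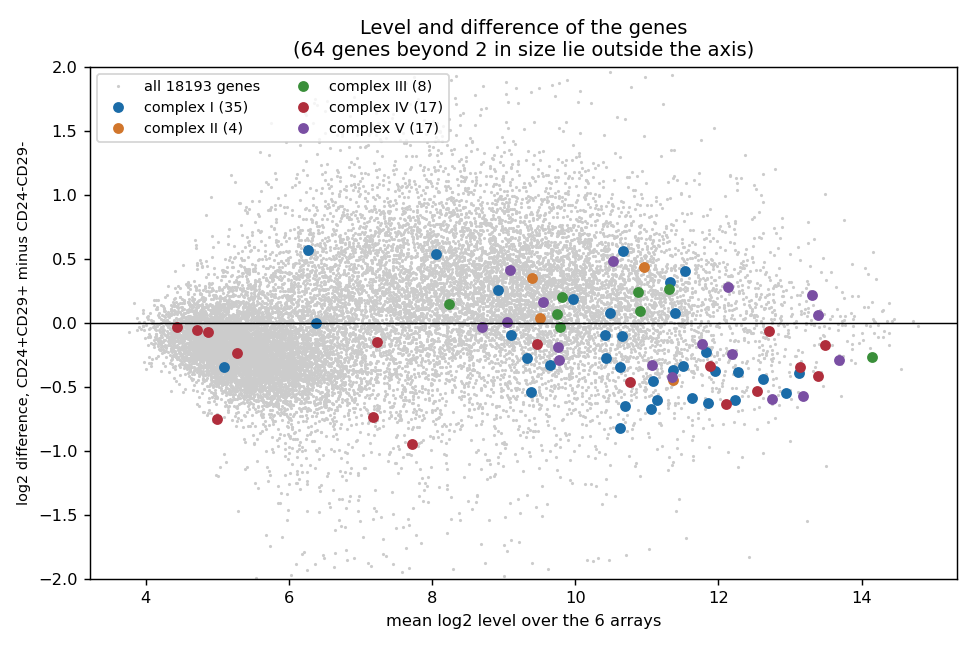
Mean log2 level over the 6 arrays (horizontal axis) and log2 difference, CD24+CD29+ minus CD24-CD29- (vertical axis), as deposited, of all 18193 genes in grey and of the members coloured by complex. To the right of a level of 11, 29 of the 37 members fell, while the grey cloud is spread to both sides of 0; 64 genes beyond 2 in size lie outside the axis.

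The probe sets of a gene did not always agree in direction. Of the 164, 27 were higher, 93 lower and 44 not past the threshold when all 45037 probe sets that are not controls were fitted together, where 63.9% of all passed, 29.2% as higher and 34.8% as lower. The 83 probe sets that did not represent a gene had 10 rises and 48 falls, and their median was -0.23. Of these 83, 29 end in _x_at and can cross-hybridise. Of the 34 genes that fell and had several probe sets, 26 had a second one that fell and 5 had one that rose. Of the 7 genes that rose and had several, 4 had a second one that rose and 4 had one that fell. In all, 9 genes had probe sets past the threshold in both directions: besides Ndufv1, Ndufs8, Sdhd, Atp5a1, Atp5g2 and Atp5j2, these were Ndufa12, Ndufb8 and Ndufc1, each with 1 dimmer probe set that was higher, by 0.41, 0.35 and 0.33. When the probe sets were averaged, the differences of these last 3 were -0.082, -0.0003 and -0.021, and none passed. How often the probe sets of a gene differ in direction over all genes was not counted. Nothing particular to the members is therefore read from these counts of genes.

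**Figure D4:**
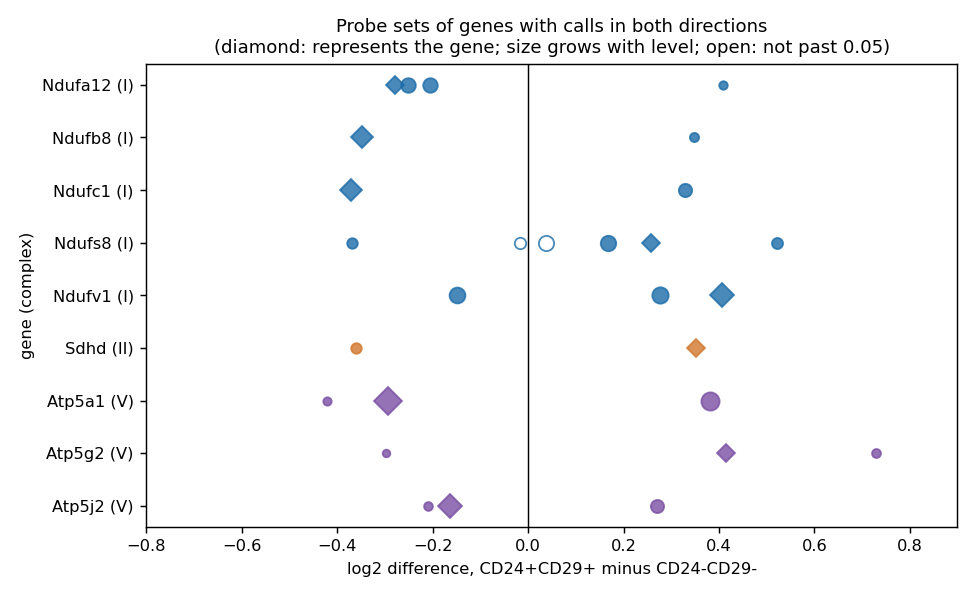
Log2 difference, CD24+CD29+ minus CD24-CD29- (horizontal axis), of every probe set of the 9 genes with calls in both directions (vertical axis, complex in brackets). Diamonds are the probe sets that represent the gene, larger symbols are brighter, and open symbols did not pass. For Atp5a1 bright probe sets lie on both sides of 0, while for Ndufa12 and Ndufb8 the one on the right is dim.

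Other lists of mitochondrial genes had more rises than falls, but so had all genes of like level: 58.8% were higher and 19.2% lower at a mean level of 8 to 9, 57.7% and 22.2% at 9 to 10, and 55.3% and 23.8% at 10 to 11. The lists had median levels of 8.59 to 10.76, and nothing particular to them is read from the counts. Assembly factors build the complexes and insert their metal centres. The 46 measured had a median of 0.10, and 20 rose, 15 fell and 11 did not pass. Foxred1, an assembly factor of complex I, was higher by 1.19 (SE 0.05) and Cox15, which makes the haem of complex IV, by 0.75, while Sdhaf1 and Uqcc3, which serve complexes II and III, were lower at -0.59 each. For Cox15 the call was lost when a brighter probe set ending in _x_at stood for the gene. Of 20 genes of ubiquinone synthesis, electron carriers and accessory proteins outside the rule, 9 rose and 5 fell. They include Pdss2 and Coq4, of ubiquinone synthesis, at 0.83 and 0.74, and Etfdh and Etfa, which bring in electrons from fatty acid oxidation, at -0.51 and -0.43. Cyc1, the cytochrome c1 of complex III, rose by 0.14, and Cycs, which encodes cytochrome c, fell by 0.22. None of the 13 protein genes of the mitochondrial genome was read by a probe set with 1 symbol, so they were not analysed here.

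Of 21 regulators of mitochondrial biogenesis, 12 (57.1%) rose, 4 (19.0%) fell and 5 did not pass, shares close to those of all genes at their median level of 9.31. Their median difference was 0.28. Polg, the mitochondrial DNA polymerase, and Pprc1, a coactivator, were higher by 0.95 and 0.90. Esrrg, a nuclear receptor known to drive oxidative genes, was lower at -1.36 and Polg2, the accessory subunit of the polymerase, at -0.997. Of the factors whose motifs are shown above, Gabpa and Yy1 were higher by 0.43 and 0.42, while Nrf1 did not pass, at 0.07. Of 23 genes of the citrate cycle and pyruvate oxidation, 10 rose and 7 fell, with the 2 largest rises in Dlst (1.03) and Pdhx (0.60) and the 2 largest falls in Pdk1 (-0.54) and Suclg1 (-0.38). Genes often used as markers of mitochondrial mass had a median of 0.04 over 20 genes, of which 7 rose, 4 fell and 9 did not pass, the 2 largest rises being Tomm40 (0.69) and Hspd1 (0.53) and the 2 largest falls Tomm70a (-0.61) and Hspa9 (-0.25).

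**Figure D5:**
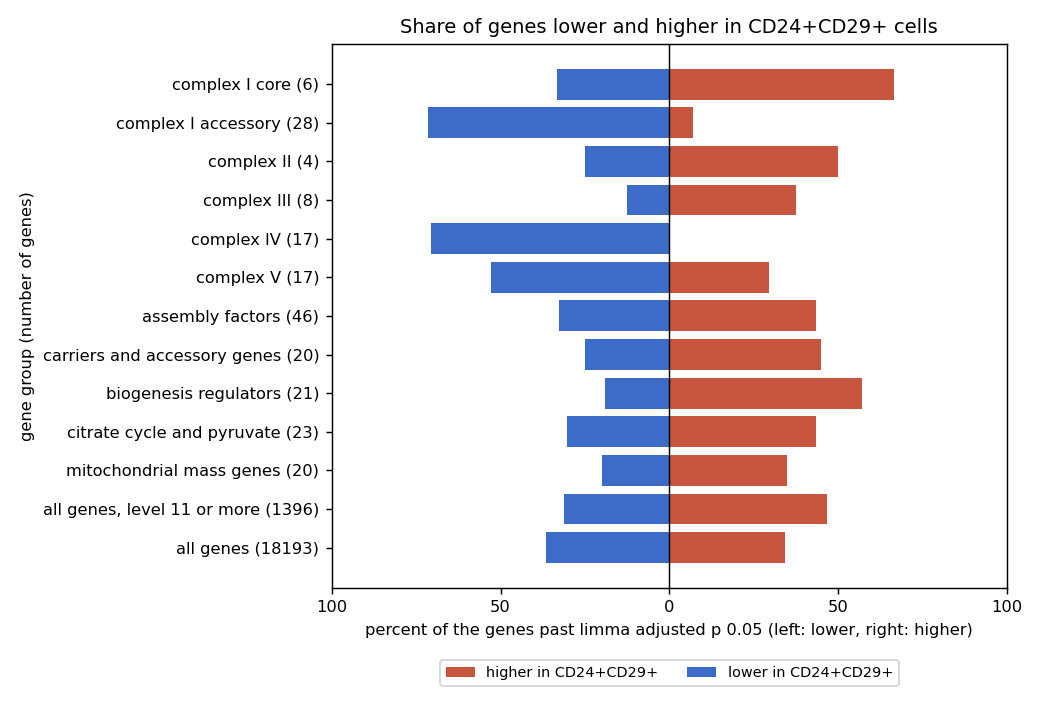
Percent of genes past the threshold (horizontal axis, lower in CD24+CD29+ cells to the left and higher to the right) in groups of oxidative phosphorylation genes, in other mitochondrial lists and in all genes (vertical axis, number of genes in brackets), as deposited. The accessory genes of complex I and the genes of complex IV lean to the left, with 20 of 28 and 12 of 17 lower.

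The promoter windows differed in the motifs they held. The 66 genes had 71 windows. The NRF1 core was in 9 of them (12.7%), the GABPA motif in 17 (23.9%) and the YY1 core in 10 (14.1%), against 4.05%, 13.04% and 6.39% of the 18009 windows of all measured genes. In the windows of genes that rose, the NRF1 core was in 5 of 15 and the YY1 core in none. In those of genes that fell, the NRF1 core was in 2 of 41 and the YY1 core in 10 of 41. The GABPA motif was in 6 of 15 and 9 of 41. In the 15 windows of genes that did not pass, the NRF1 core and the GABPA motif were in 2 each and the YY1 core in none. No window held both the NRF1 and the YY1 core. The genes with the NRF1 core that rose were Sdhb, Uqcrc1, Uqcr11, Atp5l and Atp5g2, and those that fell were Cox6a1 and Atp5k. Of these, Uqcr11 lost its call after quantile normalization and cyclic loess, and Atp5g2 had probe sets in both directions. Among the genes with the YY1 core, Ndufb8, Ndufc1 and Atp5j2 had probe sets in both directions. Their calls were lost when the probe sets were averaged. The longer NRF1 motif, the core with GC before it, was in 4 of the 9. The longer YY1 motif, the core with CGG after it, was in 4 of the 10, those of Ndufa9, Ndufs4, Ndufs7 and Atp5j, which all fell. The SP1 motif GGGCGG was in 29 (40.8%), against 52.4% of the windows of all measured genes. These are counts of letters within 300 bases. They were not tested, and they show neither a bound factor nor a cause.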

How the data were processed

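Total RNA of 6 samples was hybridised to Affymetrix Mouse430_2 arrays. The deposited values are log2 probe set summaries; per the submitters' processing notes the authors used RMA and Partek, with no version given. Detection calls are lacking, and precision is limited by the number of arrays. Each of the 6 arrays had a mean of 6.93, and 64 probe sets were controls. The spread of the values differed between the groups. The SD over all probe sets was 2.10 to 2.14 on CD24+CD29+ arrays and 2.01 to 2.03 on CD24-CD29- arrays. The lower quartile was 5.20 to 5.27 and 5.37 to 5.41. The part of this spread in the calls was not tested.

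Probe sets were named through the platform annotation. For each gene the brightest single-symbol probe set was taken, one ending in _x_at only where there was no other. The comparison used limma 3.58.1 (R 4.3.3), without a block, on the values as deposited, over 18193 genes (12889, or 70.8%, passed) and separately over 45037 probe sets. The fit was tested on simulated data. Alternatives were other normalizations, probe set choices, filters, variance models and memberships, and leaving out each array.

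Named genes were the members of complex II, the 3 largest rises and falls of each other complex, the tissue isoforms, genes with probe sets past the threshold in opposite directions, and the 2 largest rises and falls of each other list. Every other gene named was added after its values were seen, to account for the rest of its complex or to set a factor beside its motif. The members and lists were chosen with earlier results of these data known.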

Additional observations from a re-analysis of the deposited data

How the results depend on the processing

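Leaving out 1 array in turn gave 17 genes higher each time and 45 to 46 lower. The medians then ran from -0.23 to -0.20 over all members, -0.37 to -0.31 for complex I, 0.16 to 0.21 for complex II, 0.083 to 0.14 for complex III, -0.35 to -0.33 for complex IV and -0.19 to -0.14 for complex V. Scaling to the poly-A controls gave 81 higher and 0 lower by limma, and medians of 0.85 over all members and of 0.74, 1.28, 1.203, 0.74 and 0.92 for complexes I to V. Of all 18193 genes, it called 17842 higher and 178 lower. This scaling shifts all genes alike, so the members relative to all genes had to stay at -0.19. Under it these differences that had been negative became positive: Ndufb5 0.26, Ndufb6 0.40, Ndufa5 0.44, Ndufa12 0.80, Ndufb8 0.73, Ndufc1 0.71, Sdha 0.63, Uqcrb 0.81, Cox7c 0.13, Cox7a1 0.33, Cox8c 0.35, Cox4i2 0.85, Cox6a2 0.93, Cox6b2 1.01, Cox7b2 1.05, Cox8b 1.02, Atp5c1 0.49, Atp5h 0.51, Atp5o 0.66, Atp5a1 0.79, Atp5j2 0.92, Atp5g1 1.05, Sdhaf1 0.49, Uqcc3 0.49, Etfdh 0.57, Etfa 0.65, Polg2 0.085, Pdk1 0.54, Suclg1 0.71, Tomm70a 0.47 and Hspa9 0.83. That of Esrrg stayed negative. Averaging each gene's probe sets gave medians of -0.12 over all members and -0.12, -0.045, 0.0047, -0.23 and -0.035 for complexes I to V, and Sdhd stood at -0.0044 and Sdhc at -0.085. Median centring gave -0.17 over all members and 0.25, 0.18, -0.29 and -0.11 for complexes II to V, with Cox7b2 at 0.024 and Atp5g1 at 0.018. Quantile normalization gave 0.010 and -0.028 for complexes II and III, with Sdhc at -0.15, Cox6b2 0.042, Cox7b2 0.046 and Cox8b 0.043. Cyclic loess gave 0.00045, -0.038 and -0.22 for complexes II, III and V, with Sdhc at -0.16, Cox6b2 0.053, Cox7b2 0.073 and Cox8b 0.062. The median of complex IV was -0.31 with the brightest probe sets, -0.38 without the dimmest 40% of genes, and -0.29 with Ndufa4 added or with Cox7a2l left out. Requiring at least 1.5-fold left 0 higher, where 17 had passed on the adjusted p alone, and 12 lower. The share of all genes past this cut was not counted, so nothing particular to the members is read from it. Counting all probe sets gave 27 higher and 93 lower. The replicate block gave 17 higher and 46 lower, although arrays sharing a number did not all deviate together (r = 0.22, -0.05 and 0.04), and not every array correlated best with its own number. Leaving out 1 array, Cox6b2 and Cox7b2 turned positive in some cases, with ranges of -0.12 to 0.0030 and -0.074 to 0.026, and neither passed. The causes of these changes were not tested. The absence of detection calls limits what can be said of the 6 members with a mean level under 6.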
